A study of Homo sapiens with 12 samples.

Results

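The genes examined were 46 genes of the integrated stress response: the transcription factor ATF4, its targets in amino acid metabolism and transport, and the cytosolic aminoacyl-tRNA synthetases. They were listed by gene name, with earlier results of these data known, and all 46 had a row in a table of 60671 genes. Of the 46, 45 reached the mean of 1 FPKM over the 12 libraries that the test required, and VLDLR, a lipoprotein receptor, was listed at 0 in every library. FPKM values are fragment counts divided by gene length and library size, so that levels can be compared between genes.

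RNA was sequenced from libraries labelled as Jurkat, a T cell acute lymphoblastic leukemia line, in 4 groups of 3 libraries. NC+DMSO and NC+VCR were control cells, listed as wild type in the labels and described by the study as carrying the GFP vector pHIV7-SFFV-GFP. PTPN21+DMSO and PTPN21+VCR were cells overexpressing the phosphatase PTPN21 from the same lentiviral vector. Cells received vincristine (VCR), a drug that blocks microtubule assembly, or its solvent DMSO, and were harvested after 48 h in all 4 groups. The VCR dose of the sequenced cells is not given in the sources used here, and the study says of its experiments in general that they were repeated, without saying whether the sequenced libraries of a group came from separate cultures. The p-values thus measure the spread between these libraries, which may be technical.

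In the integrated stress response, kinases that sense amino acid shortage, unfolded protein, double-stranded RNA or lack of heme phosphorylate the translation initiation factor eIF2. General translation then falls while ATF4 mRNA, which carries upstream reading frames, is translated more. ATF4 binds with partners of the C/EBP family to response elements in its target genes and raises amino acid synthesis, amino acid import and the loading of amino acids onto tRNA. The amount of ATF4 mRNA is therefore not a measure of ATF4 protein, and no protein was measured in these libraries.

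The labels were checked first. PTPN21 itself was 0.0767, 0.0212 and 0.0934 in NC cells and 7.93, 10.5 and 8.02 in PTPN21 cells under DMSO, and 0.569, 0.16 and 0.372 in NC cells and 6.53, 6.34 and 4.34 in PTPN21 cells under VCR (FPKM, replicates 1 to 3, here and in all such sentences), so the PTPN21 and NC libraries did not overlap. The label Jurkat was not borne out by the markers. Of 12 T cell markers, CD3D and TAL1 reached a mean of 1 FPKM, and CD247, CD28, LCK and CD1E were listed at 0 in all 12 libraries. Of 11 myeloid, erythroid and epithelial markers, 6 did (LYZ, HBA1, HBG1, EPCAM, KRT8 and KRT19), and of 8 B cell markers, 0 did. The summed FPKM of the 11 was 877 to 1188 in NC cells and 1315 to 1577 in PTPN21 cells under DMSO, and 1595 to 1705 and 1628 to 2233 under VCR. That of the 12 T cell markers was 75.2 to 107 and 128 to 158 under DMSO, and 115 to 139 and 112 to 118 under VCR. These sums moved with the groups and their part in the results was not tested, and in bulk RNA a smaller number of cells of one kind and less RNA in each cell cannot be told apart. Depth is not given, but the step in which low values fell was smaller in every PTPN21 library than in every NC library, equivalent to 40900000 to 48400000 against 28500000 to 36100000 fragments if 1 step was 1 fragment, so construct and depth cannot be told apart.

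Response elements of the C/EBP-ATF kind were searched for as the letters TGATGNAA on either strand (TTNCATCA when the match lies on the other strand), in RefSeq promoter windows of GRCh38.p14 running from 250 bases before to 50 bases after each gene's start. Windows were at hand for 38 of the 46 genes. Matches were found in 12 of the 38 (31.6%), against 1270 of all 35116 promoters (3.62%). The 12 were CEBPG and CHAC1 among the factors and feedback genes, ASNS among the enzymes, SLC3A2 and SLC7A1 among the carriers, and AARS1, CARS1, GARS1, IARS1, MARS1, NARS1 and TARS1 among the synthetases. The stricter TGATGCAA or its reverse TTGCATCA was in 8 of the 38 (21.1%), against 304 of all promoters (0.87%). In both counts the 38 are genes, while all promoters are counted by window, whether or not the gene was expressed here. Some of the 46 genes are known as ATF4 targets partly through such elements, and a match is a description of the letters, not of binding.
The match with up to 11 bases on each side is shown for the 7 of the 12 genes that passed the test in at least 1 comparison between groups, 5′ to 3′ on the gene's strand with the matching letters in capitals:
CEBPG: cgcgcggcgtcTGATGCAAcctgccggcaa
CHAC1: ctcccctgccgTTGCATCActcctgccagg
ASNS: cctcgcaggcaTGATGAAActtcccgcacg
SLC3A2: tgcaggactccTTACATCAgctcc
CARS1: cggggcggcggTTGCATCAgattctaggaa
MARS1: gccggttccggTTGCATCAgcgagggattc
NARS1: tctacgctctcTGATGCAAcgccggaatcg
These lay at chr19:33374060-33374089 (plus strand) for CEBPG, chr15:40953251-40953280 (plus strand) for CHAC1, chr7:97872458-97872487 (minus strand) for ASNS and chr11:62881725-62881748 (plus strand) for SLC3A2. Those of the synthetases lay at chr11:3057407-3057436 (minus strand) for CARS1, chr12:57488053-57488082 (plus strand) for MARS1 and chr18:57621804-57621833 (minus strand) for NARS1. The first capital was 209 bases before the start in CHAC1, 68 in ASNS, 42 in CEBPG, 4 in MARS1 and 2 in CARS1, and in NARS1 and SLC3A2 it was base 15 and base 38 of the transcript. The SLC3A2 window is shorter because the promoter table ends there. With VCR in NC cells, 6 of the 12 genes with a match passed the test (1 higher, 5 lower), against 14 of the 25 tested genes whose window had none (1 higher, 13 lower) and 36.2% of all genes. In PTPN21 cells 3 of the 12 passed (1 higher, 2 lower), against 11 of the 25 (1 higher, 10 lower) and 28.5% of all genes.

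ATF4 occurred at 2 levels that crossed the groups. ATF4 (ENSG00000128272, chromosome 22 from 39519695 to 39522685, GENCODE release 29 on GRCh38) was 26.3, 302 and 246 in NC cells and 29.8, 32.7 and 329.6 in PTPN21 cells under DMSO, and 314, 312 and 336 in NC cells and 26, 26.5 and 29.1 in PTPN21 cells under VCR. NC+DMSO replicate 1, PTPN21+DMSO replicates 1 and 2 and all PTPN21+VCR libraries were low, the 6 others were high, and no library lay between 32.7 and 246. On the log2(FPKM + 1) scale the gap between the levels was 2.87, and the same 6 libraries were on its high side with a pseudocount of 0.1 and under TPM, median ratio and quantile scaling. Among the 11591 genes tested, 751 had a gap of at least 1 somewhere, and in 0 genes other than ATF4 did it separate the same libraries. A gap at least as large as that of ATF4 occurred in 66 genes, ATF4 included. POLR2A, which encodes the largest subunit of RNA polymerase II, was the single other gene whose largest gap, of 0.35, divided the libraries as ATF4's did.

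**Figure D1:**
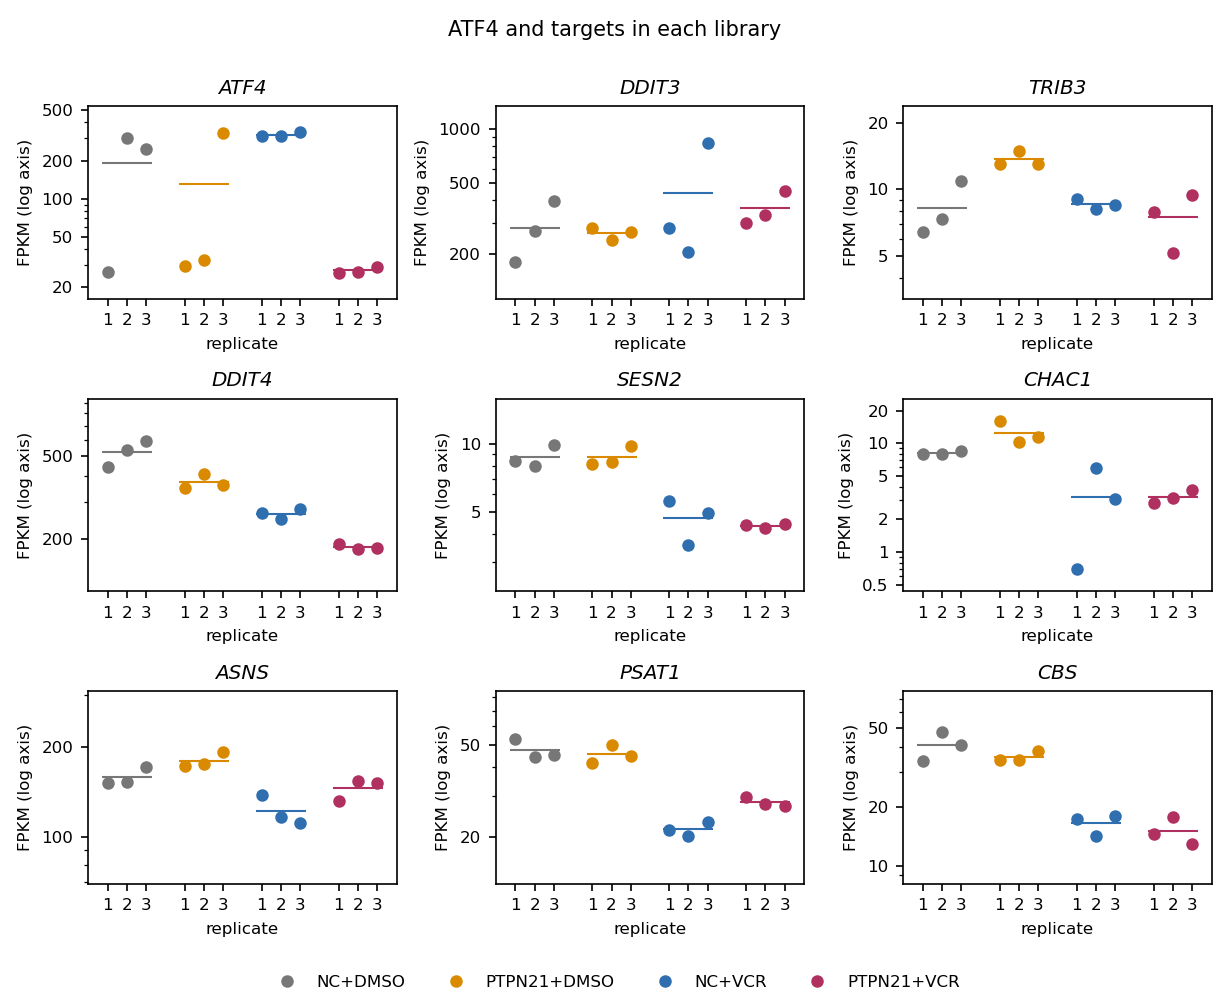
FPKM (log axis) of ATF4 and 8 of its target genes in each of the 12 libraries, by group and replicate number, with a line at the group mean. ATF4 sits at 26 to 32.7 or at 246 to 336 FPKM, with both levels inside each DMSO group, while DDIT4, SESN2, PSAT1 and CBS are separated by VCR and not by the ATF4 level.

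The targets did not divide with ATF4 among the DMSO libraries. ATF4 in NC+DMSO replicates 2 and 3 was 11.5 and 9.33 times its level in replicate 1, and in PTPN21+DMSO replicate 3 it was 11.1 and 10.1 times its level in replicates 1 and 2. Over the 44 other genes tested, the same 4 ratios had medians of 0.99, 1.10, 1.03 and 0.96, and single genes ran from 0.44 (ALDH18A1) to 2.93 (CEBPB). ASNS, PHGDH, CBS, SLC7A5, STC2, MARS1 and VARS1 were above 1 in all 4 ratios. These ratios of single libraries have no test, and they are not independent. The NC ratios share replicate 1 and the PTPN21 ratios share replicate 3. The share of all genes above 1 in all 4 was not computed, so the 7 genes cannot be set against it.

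The spread within groups showed the same. The highest over the lowest ATF4 value of a group was 11.5 in NC cells and 11.1 in PTPN21 cells under DMSO, but 1.08 and 1.12 under VCR. For the other 44 genes the median of this ratio was 1.30 and 1.20 under DMSO and 1.28 and 1.20 under VCR. Its largest value among them was 8.51, for CHAC1 in NC+VCR, where replicate 1 stood at 0.696 FPKM.

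**Figure D2:**
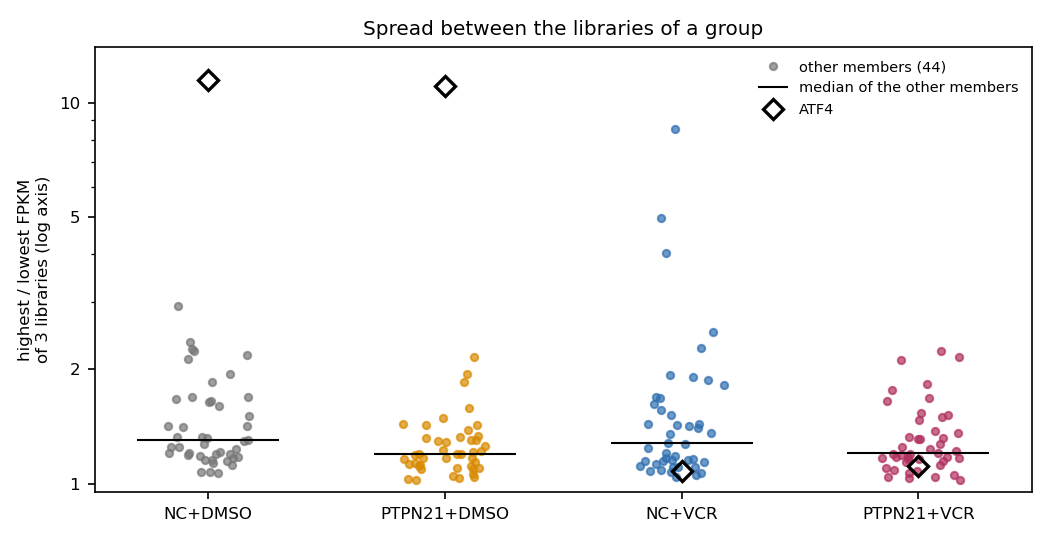
Highest over lowest FPKM of the 3 libraries in each group (log axis) for 45 genes, with ATF4 as an open diamond, the 44 others as dots and their median as a line. ATF4 lies above 11 in both DMSO groups and near 1 in both VCR groups, while the medians of the others lie between 1.20 and 1.30.

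ATF4 overlaps no other annotated gene, and the table gives 1 value per gene, so transcript forms cannot be separated. Copies of ATF4 elsewhere in the genome could share its reads. ATF4P3 was 0.983 to 1.88 and ATF4P4 0.219 to 1.31 over the 12 libraries, and neither divided as ATF4 did. ATF4P1 was listed at 0 in 9 libraries and ATF4P2 in 11, with at most 0.0201 FPKM. Of 34 pseudogenes named after one of the 46 genes, 22 were listed at 0 in all libraries and 3 reached a mean of 1 FPKM (ATF4P3, XPOTP1 and SLC7A5P1).

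Between PTPN21+VCR and NC+VCR, whose libraries did not overlap, the log2 fold change of ATF4 was -3.51 (SE 0.91, adjusted p = 0.0723 in limma). The standard error is shared over the 4 groups, including both in which ATF4 took 2 levels. With PTPN21+VCR and NC+VCR fitted alone the adjusted p was 1.7e-05 in limma. That fit leaves out the DMSO groups, where single libraries of a group differed in level. It thus measures the narrow spread inside each level, and cannot tell how readily 3 libraries of a group share a level. Of the 10 other settings, this one included, 2 were under 0.05 and the highest value was 0.218. Of the 12 fits without 1 library, 2 were under 0.05. The log2 fold changes were 1.34 (adjusted p = 0.266) for NC+VCR against NC+DMSO, -1.31 (adjusted p = 0.308) for PTPN21+VCR against PTPN21+DMSO, -0.86 (adjusted p = 0.593) for PTPN21+DMSO against NC+DMSO and -2.65 (adjusted p = 0.376) for the interaction, all in limma.

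Under VCR, on the deposited scale, most of the 46 genes that changed were lower, as were most genes of the table that changed. In NC cells, 21 of the 45 tested passed an adjusted p of 0.05 in limma, 2 higher and 19 lower, where 36.2% of all genes passed, 7.91% higher and 28.3% lower. In PTPN21 cells, 17 passed, 2 higher and 15 lower, where 28.5% of all genes passed, 9.22% higher and 19.3% lower. The median log2 fold change of the 45 was -0.39 in NC cells and -0.31 in PTPN21 cells, and that of all genes was -0.36 and -0.17. The VCR and DMSO libraries were fully apart for 24 and 27 of the 45, against 44.1% and 50.4% of all genes.

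These comparisons contrast different libraries, but both take each gene's standard error from all 12, so their calls are not independent. Of the genes called, 12 were called in both with the same direction (57.1% of the 21 and 70.6% of the 17), where the shares over all genes were 52% of 4192 and 65.8% of 3308. The 12 were SARS1, which rose, and DDIT4, SESN2, CHAC1, PSAT1, CTH, CBS, SLC3A2, VARS1, KARS1, FARSA and FARSB, which fell. Called in NC cells and not in PTPN21 cells were ALDH18A1, ASNS, CARS1, EPRS1, MARS1, MTHFD2, NARS1, SLC7A5 and WARS1. CEBPG, GPT2, RARS1, SHMT2 and TRIB3 were called in PTPN21 cells and not in NC cells. The interaction of PTPN21 and VCR, which tests whether the changes differ, passed for 0 of the 45 (0.129% of all genes), with 8 of the 45 (14% of all genes) at an unadjusted p under 0.05 in limma and a lowest adjusted p of 0.213, for NARS1.

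How the libraries were scaled decided part of these calls. Median ratio scaling moved the median of all genes in the NC comparison from -0.36 to -0.03 and in the PTPN21 comparison from -0.17 to -0.02. Of all genes, 14.9% were then higher and 11.5% lower in NC cells, and 13.2% and 12.6% in PTPN21 cells, so the balance towards lower values was not kept. Among the 45, it left 12 calls in NC cells, 5 higher and 7 lower, and turned the direction of ASNS, FARSB and WARS1. The 7 that were still lower were DDIT4, PSAT1, CTH, CBS, SLC7A5, SLC3A2 and FARSA, and CEBPB, CEBPG and TARS1 joined SARS1 and CARS1 as higher. In PTPN21 cells it left 14 calls, 3 higher and 11 lower, and KARS1, RARS1, FARSB and SHMT2 lost their calls, as they did under quantile scaling. Quantile scaling gave 3 higher and 10 lower in NC cells and 2 higher and 11 lower in PTPN21 cells, where 13.3% and 12% of all genes, and 14.2% and 13.3%, were higher and lower.

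**Figure D3:**
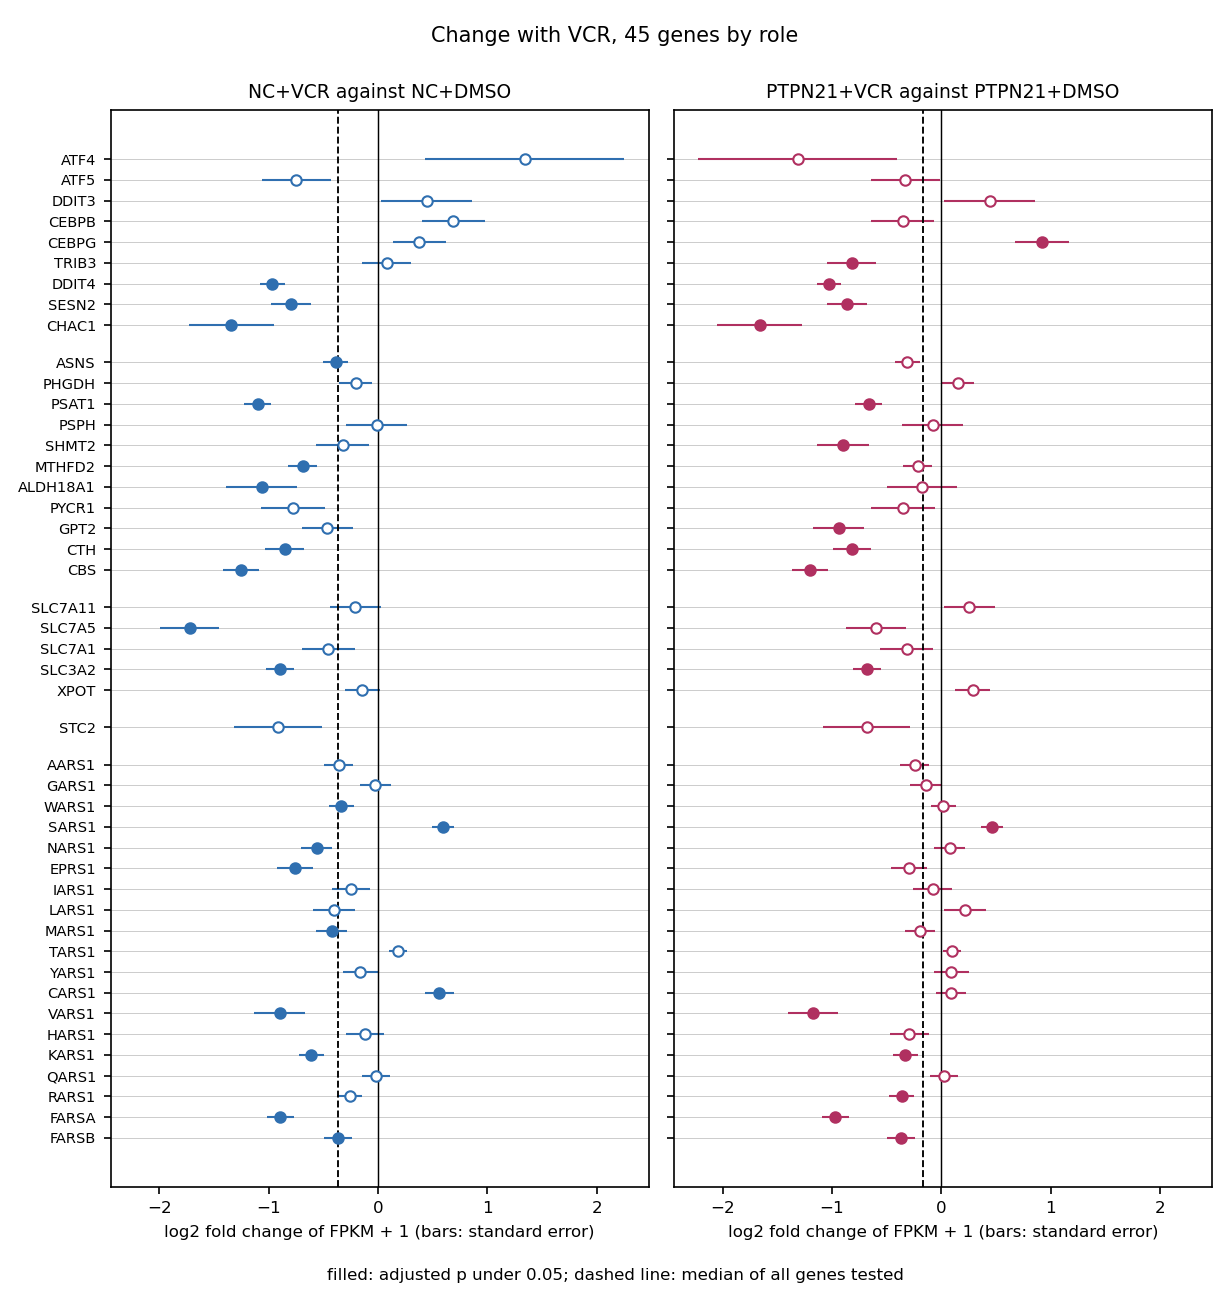
Log2 fold change of FPKM + 1 with VCR for 45 genes by role, in NC cells (left) and PTPN21 cells (right), with standard errors, filled where the adjusted p was under 0.05, and a dashed line at the median of all genes. Most filled points lie left of the dashed line in both panels, and SARS1 lies right of 0 in both.

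Of the 9 transcription factors and feedback genes, 3 fell with VCR in NC cells, and 4 fell and 1 rose in PTPN21 cells. Of all genes, 28.3% fell in NC cells, and 19.3% fell and 9.22% rose in PTPN21 cells. DDIT4, an inhibitor of mTORC1 signaling (ENSG00000168209, chromosome 10 from 72273920 to 72276036), was 443, 533 and 589 in NC cells and 353, 412 and 364 in PTPN21 cells under DMSO, and 267, 250.1 and 278 in NC cells and 190.3, 179.8 and 181 in PTPN21 cells under VCR. Every group lay apart from the others, with NC+DMSO highest and PTPN21+VCR lowest. Its log2 fold change with VCR was -0.97 (SE 0.114, adjusted p = 9.09e-05 in limma) in NC cells and -1.03 (SE 0.114, adjusted p = 6.59e-05 in limma) in PTPN21 cells. DDIT4-AS1, an antisense gene expressed here, overlaps DDIT4, and strand was not stated for the counting.

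SESN2, which encodes the leucine sensor Sestrin 2, was 8.45, 8.02 and 9.9 in NC cells and 8.16, 8.35 and 9.79 in PTPN21 cells under DMSO, and 5.6, 3.58 and 4.94 in NC cells and 4.4, 4.24 and 4.43 in PTPN21 cells under VCR. The VCR libraries were all below the DMSO libraries. Its log2 fold change was -0.79 (adjusted p = 0.00602) in NC cells and -0.86 (adjusted p = 0.00452) in PTPN21 cells, and the first of these calls was lost under median ratio and quantile scaling.
CHAC1, an enzyme that breaks down glutathione, was 7.99, 8.03 and 8.57 in NC cells and 16.1, 10.2 and 11.4 in PTPN21 cells under DMSO, and 0.696, 5.93 and 3.08 in NC cells and 2.82, 3.16 and 3.7 in PTPN21 cells under VCR. Both VCR groups lay below both DMSO groups, and the NC+VCR libraries were widely spread. This was a log2 fold change of -1.34 (adjusted p = 0.0193) in NC cells, where it was lost without NC+DMSO replicate 3 (adjusted p = 0.0526), and -1.66 (adjusted p = 0.00776) in PTPN21 cells. The NC call was also lost with no filter, with the groups compared alone and under median ratio and quantile scaling (adjusted p of up to 0.118 in limma).

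TRIB3, a pseudokinase that restrains ATF4, was 6.44, 7.38 and 10.9 in NC cells and 13.1, 14.8 and 13 in PTPN21 cells under DMSO, and 9.07, 8.2 and 8.48 in NC cells and 7.87, 5.15 and 9.41 in PTPN21 cells under VCR. PTPN21+DMSO stood above the other groups. The log2 fold change with VCR was -0.82 (adjusted p = 0.0171) in PTPN21 cells, lost without PTPN21+DMSO replicate 2 or PTPN21+VCR replicate 2 (adjusted p of 0.0592 to 0.0730), and 0.08 (adjusted p = 0.801) in NC cells.
CEBPG, a dimer partner of ATF4, was 26.6, 22.8 and 18.7 in NC cells and 15.1, 27.9 and 14.4 in PTPN21 cells under DMSO, and 36.3, 31.7 and 22.4 in NC cells and 36.8, 37.1 and 33 in PTPN21 cells under VCR. The PTPN21+VCR libraries were above all PTPN21+DMSO libraries. On the log2 scale the change was 0.92 (adjusted p = 0.015) in PTPN21 cells, lost without PTPN21+DMSO replicate 1 or replicate 3 (adjusted p of 0.0623 to 0.0655), and 0.38 (adjusted p = 0.244) in NC cells.

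DDIT3, which encodes the stress factor CHOP, did not pass in any comparison. Its FPKM ran from 181 to 834, with the top value in NC+VCR replicate 3, and its log2 fold change with VCR was 0.44 in NC cells and 0.44 in PTPN21 cells. DDIT3 overlaps MARS1, MBD6 and MIR616, so its reads may be shared. ATF5 (11.5 to 34.2 FPKM) and CEBPB (4.46 to 17.8 FPKM), related transcription factors, did not pass either.

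Among the 11 enzymes of amino acid and one-carbon synthesis, 6 fell with VCR in NC cells and 5 in PTPN21 cells, and 0 rose, where 28.3% and 19.3% of all genes fell. The median log2 fold change was -0.69 in NC cells and -0.35 in PTPN21 cells, against -0.36 and -0.17 for all genes. In NC cells the 11 values were all below 0, from -1.25 to -0.01.
PSAT1, an enzyme of serine synthesis (ENSG00000135069, chromosome 9 from 78297143 to 78330093), was 53.2, 44.5 and 45.2 in NC cells and 41.7, 50.1 and 44.9 in PTPN21 cells under DMSO, and 21.5, 20.1 and 23.3 in NC cells and 29.8, 27.7 and 27.4 in PTPN21 cells under VCR. The VCR libraries were below all DMSO libraries, and NC+VCR was below PTPN21+VCR. The fitted log2 fold change was -1.10 (SE 0.125, adjusted p = 7.25e-05 in limma) in NC cells and -0.67 (SE 0.125, adjusted p = 0.00226 in limma) in PTPN21 cells. The other serine enzymes, PHGDH (101 to 144 FPKM) and PSPH (3.41 to 7.76 FPKM), had log2 fold changes of -0.21 and -0.01 in NC cells and 0.15 and -0.08 in PTPN21 cells and did not pass.

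CBS and CTH carry out the steps from homocysteine to cysteine. CBS (ENSG00000160200, chromosome 21 from 43053191 to 43076943) was 34, 48 and 40.9 in NC cells and 34.6, 34.6 and 38.1 in PTPN21 cells under DMSO, and 17.4, 14.2 and 18 in NC cells and 14.5, 17.7 and 13 in PTPN21 cells under VCR. The 6 VCR libraries were all below the 6 DMSO libraries. Fitted on the log2 scale, it was -1.25 (SE 0.164, adjusted p = 0.000187 in limma) in NC cells and -1.20 (SE 0.164, adjusted p = 0.000268 in limma) in PTPN21 cells. CBSL, an almost identical copy of CBS that may share its reads, was listed at 6.64 to 27.6 FPKM, and was likewise lower in every VCR library (at most 10.4) than in any DMSO library (at least 18.6).
CTH was 8.83, 8.28 and 9.82 in NC cells and 9.23, 12.3 and 13.2 in PTPN21 cells under DMSO, and 4.54, 3.97 and 5.09 in NC cells and 6.01, 6.03 and 6.25 in PTPN21 cells under VCR. Its VCR libraries were below all DMSO libraries, with log2 fold changes of -0.85 (adjusted p = 0.00318) in NC cells and -0.81 (adjusted p = 0.00487) in PTPN21 cells. The NC call was lost under quantile scaling (adjusted p = 0.0550).

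Asparagine synthetase, the classical ATF4 target ASNS, was 151, 153 and 171 in NC cells and 173, 175 and 193 in PTPN21 cells under DMSO, and 138, 116 and 111 in NC cells and 131, 154 and 152 in PTPN21 cells under VCR. PTPN21+DMSO lay above all other groups, and NC+VCR below both DMSO groups. The log2 fold change in NC cells was -0.39 (adjusted p = 0.0213), close to the median of all genes, and it was 0.01 under median ratio scaling. In PTPN21 cells it was -0.31 (adjusted p = 0.0618).

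MTHFD2 and SHMT2 are mitochondrial enzymes of one-carbon metabolism. MTHFD2 was 50.8, 43.4 and 50.8 in NC cells and 32.5, 42.5 and 40.8 in PTPN21 cells under DMSO, and 29.2, 30.3 and 29.2 in NC cells and 34.5, 34.3 and 30 in PTPN21 cells under VCR. The log2 fold change was -0.69 (adjusted p = 0.0022) in NC cells, whose groups did not overlap, and -0.22 (adjusted p = 0.247) in PTPN21 cells.
SHMT2 was 86.5, 106 and 47.6 in NC cells and 91.4, 80.2 and 81.6 in PTPN21 cells under DMSO, and 64.4, 58.1 and 59.2 in NC cells and 47.8, 35.7 and 52.4 in PTPN21 cells under VCR. It fell in PTPN21 cells, with -0.90 (adjusted p = 0.0152), a call lost without PTPN21+DMSO replicate 1 or PTPN21+VCR replicate 2 (adjusted p of 0.0537 to 0.0668), with no filter and under median ratio and quantile scaling (up to 0.0775), and had -0.32 (adjusted p = 0.306) in NC cells. NC+DMSO replicate 3 was low for SHMT2, below every NC+VCR library.

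Of the enzymes of proline synthesis, ALDH18A1 was 33.3, 31 and 14.8 in NC cells and 16.6, 23.6 and 20.6 in PTPN21 cells under DMSO, and 11.6, 7.06 and 17.7 in NC cells and 17, 19.6 and 16.4 in PTPN21 cells under VCR. The NC groups overlapped, since NC+DMSO replicate 3 was below NC+VCR replicate 3. The log2 fold change of -1.06 (adjusted p = 0.0237) in NC cells was lost without NC+DMSO replicate 1, NC+DMSO replicate 2 or NC+VCR replicate 2 (adjusted p of 0.0762 to 0.0890). This call was also lost with no filter, with the groups compared alone and under median ratio and quantile scaling (adjusted p of up to 0.145 in limma). PYCR1 (32.1 to 90.8 FPKM) did not pass.
GPT2, an alanine aminotransferase of mitochondria, was 4.44, 4.39 and 5.84 in NC cells and 4.53, 4.77 and 5.96 in PTPN21 cells under DMSO, and 4.67, 2.49 and 2.87 in NC cells and 2.42, 1.63 and 2.51 in PTPN21 cells under VCR. PTPN21+VCR was below both DMSO groups and overlapped NC+VCR. Its log2 fold change was -0.94 (adjusted p = 0.0105) in PTPN21 cells and -0.46 (adjusted p = 0.139) in NC cells.

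Among the 5 transport genes, 2 fell in NC cells and 1 in PTPN21 cells, where 28.3% and 19.3% of all genes fell. SLC7A5 and SLC3A2 encode the light and heavy chains of a carrier of large neutral amino acids. SLC7A5 was 4.91, 5.15 and 9.56 in NC cells and 4.3, 4.46 and 4.47 in PTPN21 cells under DMSO, and 1.03, 0.939 and 1.71 in NC cells and 2.68, 3.58 and 1.7 in PTPN21 cells under VCR. In NC cells every VCR library was below every DMSO library, and the log2 fold change was -1.72 (SE 0.273, adjusted p = 0.000652 in limma), the most negative of the 45. In PTPN21 cells it was -0.60 (adjusted p = 0.122).
SLC3A2 was 55.3, 72 and 54.5 in NC cells and 60.1, 55.9 and 61.1 in PTPN21 cells under DMSO, and 33.6, 30.9 and 30.9 in NC cells and 34.9, 38.4 and 36.4 in PTPN21 cells under VCR. Its VCR libraries were again all below the DMSO libraries, with log2 fold changes of -0.90 (adjusted p = 0.000316) in NC cells and -0.68 (adjusted p = 0.0022) in PTPN21 cells. The cystine carrier SLC7A11 (0.643 to 2.59 FPKM), the cationic amino acid carrier SLC7A1 (0.645 to 2.98 FPKM) and the tRNA exporter XPOT (29.9 to 53.1 FPKM) did not pass. STC2, a secreted glycoprotein (1.59 to 9.63 FPKM), had -0.92 (adjusted p = 0.0925) in NC cells and -0.68 (adjusted p = 0.228) in PTPN21 cells.

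The 19 cytosolic synthetases, which load amino acids onto their tRNAs, moved in both directions under VCR. In NC cells 2 rose and 8 fell, and in PTPN21 cells 1 rose and 5 fell, where 7.91% of all genes rose and 28.3% fell in the former and 9.22% and 19.3% in the latter. Their median log2 fold change was -0.34 in NC cells and -0.14 in PTPN21 cells, close to the -0.36 and -0.17 of all genes.
SARS1, the seryl-tRNA synthetase (ENSG00000031698, chromosome 1 from 109213918 to 109238169), was 327, 348 and 278 in NC cells and 354, 321 and 326 in PTPN21 cells under DMSO, and 479, 496 and 462 in NC cells and 471, 441 and 469 in PTPN21 cells under VCR. The 6 VCR libraries lay above the 6 DMSO libraries. This was a log2 fold change of 0.60 (SE 0.0994, adjusted p = 0.000892 in limma) in NC cells and 0.46 (SE 0.0994, adjusted p = 0.00465 in limma) in PTPN21 cells, and it passed in all 22 alternatives in both.

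CARS1, for cysteine (ENSG00000110619, chromosome 11 from 3000922 to 3057613), was 84.9, 88.8 and 73.5 in NC cells and 104, 102 and 100.4 in PTPN21 cells under DMSO, and 146, 122 and 102 in NC cells and 98.6, 118 and 110.1 in PTPN21 cells under VCR. NC+VCR was above NC+DMSO in every library, and the PTPN21 groups overlapped. On the log2 scale the change was 0.56 (SE 0.136, adjusted p = 0.00765 in limma) in NC cells and 0.09 (adjusted p = 0.676) in PTPN21 cells.
FARSA and FARSB encode the subunits of the phenylalanyl-tRNA synthetase, and both fell with VCR. FARSA (ENSG00000179115, chromosome 19 from 12922479 to 12934037) was 58.2, 66.3 and 69.6 in NC cells and 66, 71.6 and 65.3 in PTPN21 cells under DMSO, and 35.7, 30.6 and 36.9 in NC cells and 32.8, 37.3 and 32.1 in PTPN21 cells under VCR. Its VCR libraries were all below its DMSO libraries, with log2 fold changes of -0.89 (SE 0.123, adjusted p = 0.000266 in limma) in NC cells and -0.97 (SE 0.123, adjusted p = 0.00017 in limma) in PTPN21 cells.
FARSB was 24.5, 22.8 and 20.5 in NC cells and 23.8, 24.4 and 24.1 in PTPN21 cells under DMSO, and 17.5, 15.9 and 18.5 in NC cells and 19.7, 16.9 and 18.7 in PTPN21 cells under VCR. Its groups did not overlap either, but the log2 fold changes of -0.36 (adjusted p = 0.0437) in NC cells and -0.37 (adjusted p = 0.0469) in PTPN21 cells were lost without 11 and 10 of the 12 libraries (adjusted p of up to 0.153), and the NC value was 0.02 under median ratio scaling. The difference between FARSA and FARSB was not tested.

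VARS1, for valine, was 23.4, 36.9 and 38.6 in NC cells and 24.1, 27.5 and 28.2 in PTPN21 cells under DMSO, and 16, 12.4 and 23.8 in NC cells and 11.3, 11.1 and 11.1 in PTPN21 cells under VCR. PTPN21+VCR was closely grouped at 11.1 to 11.3 FPKM and below all other libraries, and the NC groups overlapped. The fitted log2 fold change was -0.90 (adjusted p = 0.01) in NC cells and -1.18 (adjusted p = 0.00278) in PTPN21 cells. The NC call was lost with the groups compared alone and under median ratio and quantile scaling (adjusted p of up to 0.0977 in limma).
KARS1, for lysine, was 178, 143 and 146 in NC cells and 162, 166 and 148 in PTPN21 cells under DMSO, and 95.7, 108 and 99.9 in NC cells and 118, 135 and 126 in PTPN21 cells under VCR. NC+VCR was lowest, and no VCR library reached a DMSO library. Fitted on the log2 scale, it was -0.61 (adjusted p = 0.00172) in NC cells and -0.33 (adjusted p = 0.0475) in PTPN21 cells, the latter lost without 8 of the 12 libraries (adjusted p of 0.0526 to 0.152).

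**Figure D4:**
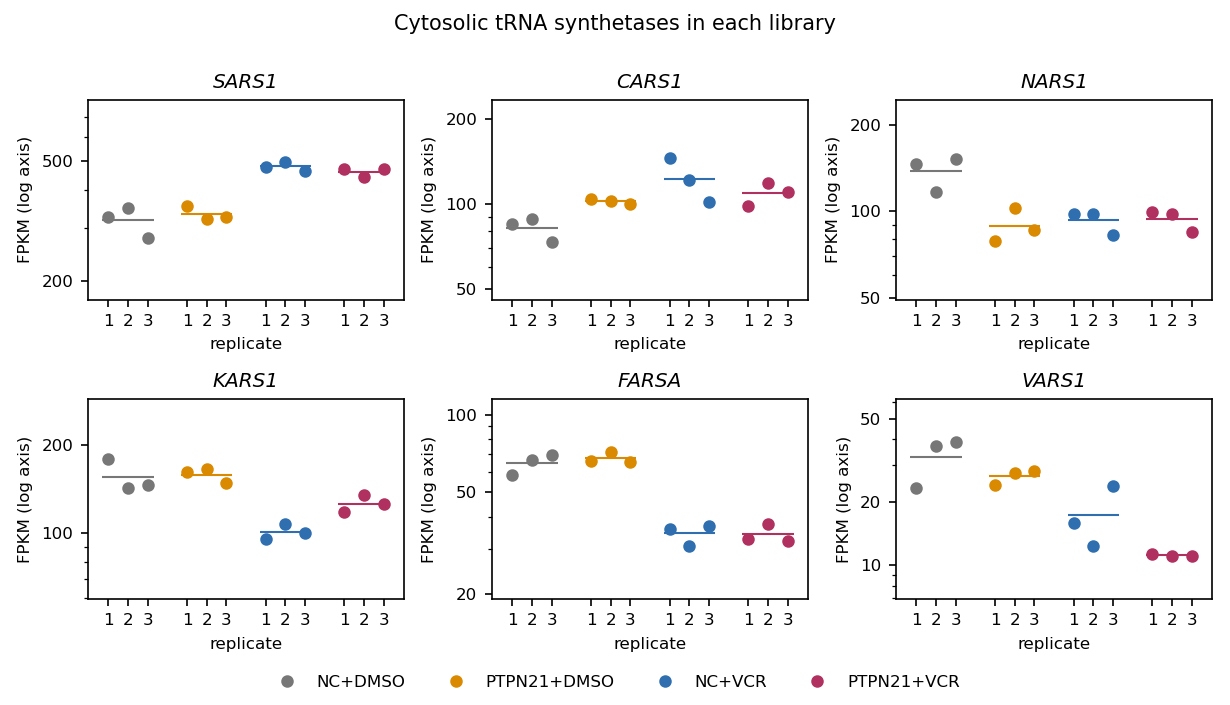
FPKM (log axis) of 6 cytosolic tRNA synthetases in each library, by group and replicate number, with a line at the group mean. SARS1 is higher in all 6 VCR libraries than in the DMSO libraries, FARSA and KARS1 are lower, and NARS1 is highest in NC+DMSO.

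EPRS1, for glutamate and proline, was 254, 236 and 247 in NC cells and 216, 221 and 227 in PTPN21 cells under DMSO, and 142, 143 and 149.8 in NC cells and 254, 153 and 151 in PTPN21 cells under VCR. NC+VCR was below NC+DMSO throughout, and PTPN21+VCR replicate 1 stood at the DMSO level apart from its 2 replicates. The log2 fold change was -0.76 (adjusted p = 0.00404) in NC cells and -0.30 (adjusted p = 0.201) in PTPN21 cells.
NARS1, for asparagine (ENSG00000134440, chromosome 18 from 57600656 to 57622213), was 146, 117 and 152 in NC cells and 79.1, 103 and 86.3 in PTPN21 cells under DMSO, and 98.2, 98.1 and 83 in NC cells and 99.3, 97.9 and 84.7 in PTPN21 cells under VCR. NC+DMSO stood above the other groups, which overlapped each other. The log2 fold change with VCR was -0.56 (adjusted p = 0.00885) in NC cells and 0.08 (adjusted p = 0.724) in PTPN21 cells.

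MARS1, for methionine, was 85.5, 87.6 and 96 in NC cells and 62, 72.9 and 75.9 in PTPN21 cells under DMSO, and 76.2, 55.9 and 69 in NC cells and 67.2, 53.9 and 63 in PTPN21 cells under VCR. WARS1, for tryptophan, was 149, 134 and 161 in NC cells and 117, 143 and 137 in PTPN21 cells under DMSO, and 116, 112 and 121 in NC cells and 143, 137 and 122 in PTPN21 cells under VCR. Both fell in NC cells by about the median of all genes, with -0.42 (adjusted p = 0.0338) and -0.34 (adjusted p = 0.0387) in groups that did not overlap, and WARS1 turned to 0.06 under median ratio scaling. The calls were lost without 5 of the 12 libraries for MARS1 and 7 for WARS1 (adjusted p of 0.0506 to 0.120).
RARS1, for arginine, was 72.7, 72.9 and 62 in NC cells and 79.7, 80.1 and 81.9 in PTPN21 cells under DMSO, and 56.1, 53.7 and 62.9 in NC cells and 62.6, 57.6 and 67.6 in PTPN21 cells under VCR. The PTPN21 groups did not overlap, and the log2 fold change of -0.36 (adjusted p = 0.0327) in these cells was a call lost without 5 of the 12 libraries (adjusted p of 0.0718 to 0.120), without the trend, with a replicate block, under quantile scaling and under median ratio scaling, where it was -0.18 (adjusted p = 0.371). The 8 others (AARS1, GARS1, IARS1, LARS1, TARS1, YARS1, HARS1 and QARS1) passed in no comparison, with log2 fold changes from -0.40 (LARS1) to 0.19 (TARS1) in NC cells.

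Few of the 46 genes passed the test between PTPN21 and NC libraries, as did few genes of the table, and construct and depth cannot be told apart. Between PTPN21+DMSO and NC+DMSO, 2 of the 45 passed, both lower (6.34% of all genes, 2.65% higher and 3.69% lower), and the median log2 fold change was -0.15 against -0.14 for all genes. Between PTPN21+VCR and NC+VCR, 1 passed, lower (1.82% of all genes, 1% higher and 0.82% lower), with a median of 0.00 against 0.03. The PTPN21 and NC libraries were fully apart for 17 and 12 of the 45, against 33.4% and 22.5% of all genes. The PTPN21+VCR and PTPN21+DMSO groups each served in a VCR comparison as well.

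DDIT4, whose values are given above, was the gene called in both. Under DMSO its mean was 522 ± 73.7 (SD, n = 3) in NC cells against 376 ± 31.3 (SD, n = 3) in PTPN21 cells, with a log2 fold change of -0.46 (SE 0.114, adjusted p = 0.0371 in limma). Under VCR the means were 265 ± 14.1 (SD, n = 3) against 184 ± 5.69 (SD, n = 3), with a log2 fold change of -0.52 (SE 0.114, adjusted p = 0.0422 in limma), and the interaction of both was -0.06. The DMSO call was lost without 6 of the 12 libraries (adjusted p of 0.0518 to 0.148) and the VCR call without 9 (0.0564 to 0.134). Both calls were also lost with no filter, without the trend and with a replicate block. The DMSO call was lost as well under median ratio scaling and with the groups compared alone (adjusted p of up to 0.182 in limma). The VCR call was lost as well under quantile scaling (adjusted p in these settings of up to 0.125 in limma). The direction was the same in all alternatives.

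NARS1 had means of 138 ± 19 (SD, n = 3) in NC cells against 89.3 ± 12 (SD, n = 3) in PTPN21 cells under DMSO, with a log2 fold change of -0.62 (SE 0.14, adjusted p = 0.029 in limma). Without 4 of the 12 libraries the adjusted p was 0.0834 to 0.128. The call was lost too with no filter, under median ratio scaling and without the trend. It was also lost with the groups compared alone and with a replicate block, and the highest adjusted p of these settings was 0.0848 in limma. Under VCR the log2 fold change was 0.01 (adjusted p = 0.975). Under median ratio scaling 2 other genes, CEBPB and TRIB3, were called higher in PTPN21+DMSO, and DDIT4 and NARS1 were not called. On the deposited scale CEBPB had 0.98 (adjusted p = 0.0626) and TRIB3 0.69 (adjusted p = 0.0827).

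**Figure D5:**
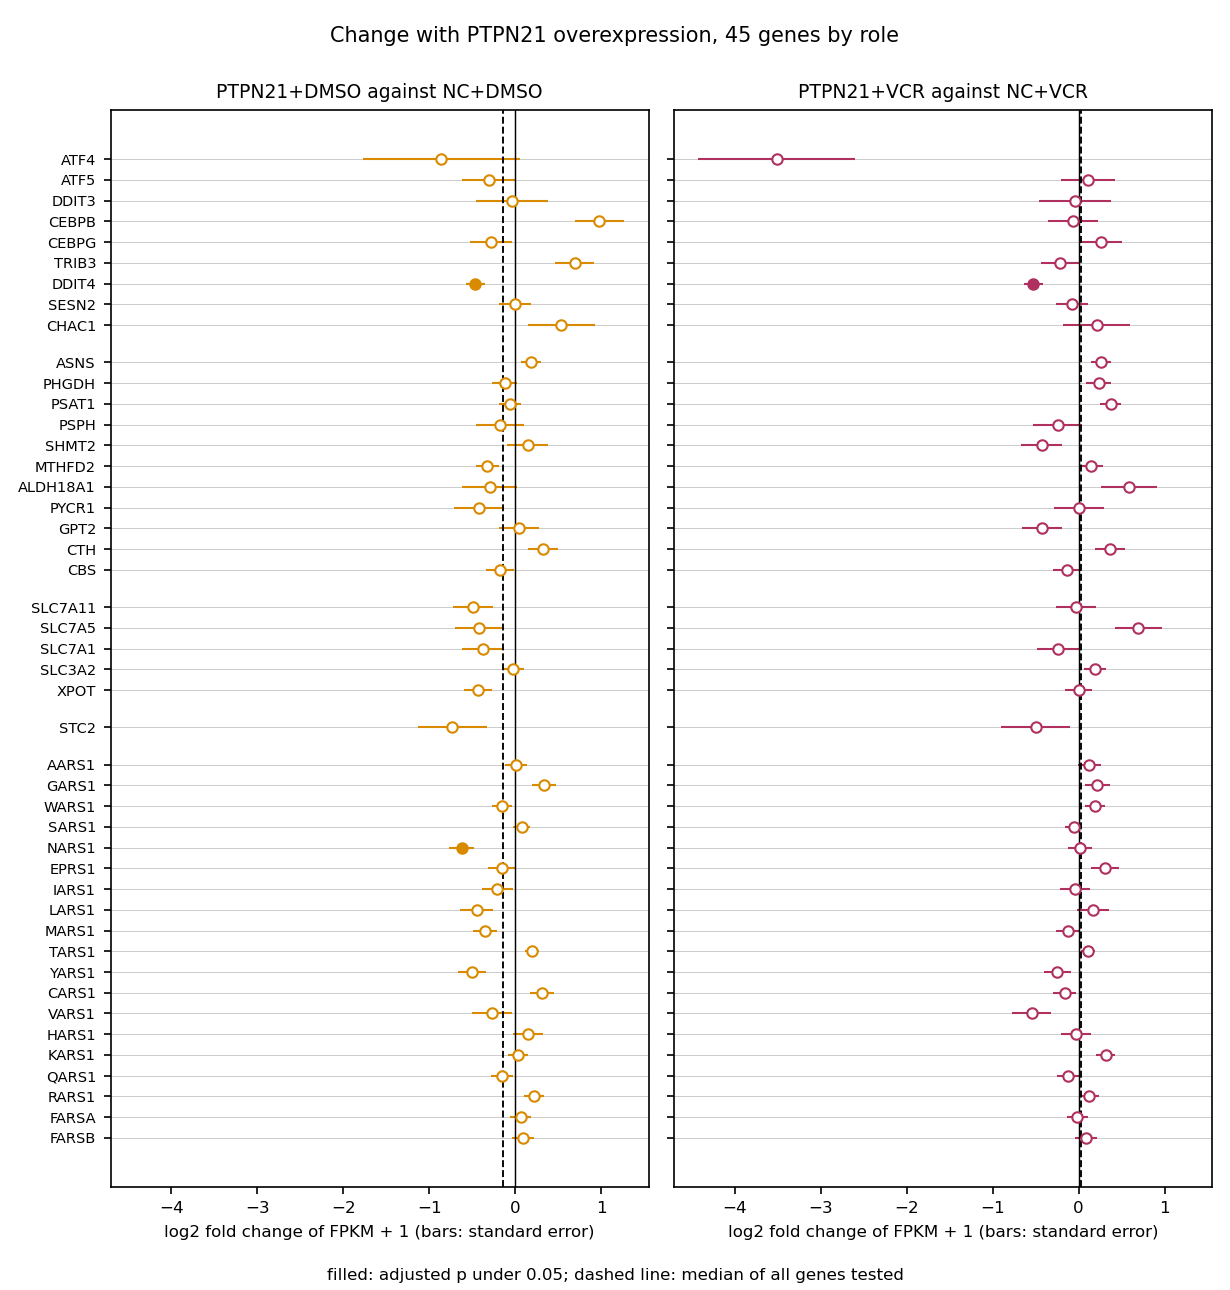
Log2 fold change of FPKM + 1 with PTPN21 overexpression for 45 genes by role, under DMSO (left) and under VCR (right), with standard errors, filled where the adjusted p was under 0.05, and a dashed line at the median of all genes. DDIT4 is filled in both panels and NARS1 in the left one, and ATF4 has by far the widest error bars.

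The upstream part of the pathway and further ATF4 targets were read from 2 more lists. Of 18 genes of the eIF2 kinases, eIF2, its exchange factor and its phosphatase, 17 were tested. Under VCR, 2 rose and 3 fell in NC cells, and 2 rose and 4 fell in PTPN21 cells, so that 29.4% and 35.3% passed against 36.2% and 28.5% of all genes. EIF2AK3, the kinase PERK of the endoplasmic reticulum, rose in both, with log2 fold changes of 1.04 (adjusted p = 0.0117) and 1.44 (adjusted p = 0.00228). It was 5.23, 2.8 and 5.97 in NC cells and 1.39, 3.2 and 2.34 in PTPN21 cells under DMSO, and 10.3, 10.2 and 10.2 in NC cells and 9.6, 7.99 and 6.09 in PTPN21 cells under VCR, with all VCR libraries above all DMSO libraries. OMA1, the mitochondrial protease that starts the signal from mitochondria to eIF2, was 11.1, 14.6 and 9.62 in NC cells and 14, 11.9 and 12.4 in PTPN21 cells under DMSO, and 2.25, 2.13 and 3.43 in NC cells and 6.2, 7.31 and 7.82 in PTPN21 cells under VCR. All VCR libraries were below all DMSO libraries, and the log2 fold change was -1.83 (adjusted p = 6.3e-05) in NC cells and -0.77 (adjusted p = 0.0142) in PTPN21 cells. The latter call was lost without PTPN21+DMSO replicate 1 or PTPN21+VCR replicate 1 (adjusted p of 0.0552 to 0.0572) and under median ratio and quantile scaling (up to 0.0692).

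Between PTPN21+VCR and NC+VCR, OMA1 was higher in PTPN21 cells, at 1.18 (adjusted p = 0.0158), a call lost without NC+VCR replicate 1 or PTPN21+VCR replicate 2 or 3 (adjusted p of 0.0596 to 0.0749) and with these groups fitted alone (0.0730). In this comparison 2 of the 17 passed (1.82% of all genes), and the other, PPP1R15A, the stress-induced subunit of the eIF2 phosphatase (GADD34), was lower. PPP1R15A was 326, 399 and 434 in NC cells and 311, 323 and 312 in PTPN21 cells under DMSO, and 418, 349.8 and 372 in NC cells and 215, 186 and 199 in PTPN21 cells under VCR. The PTPN21+VCR libraries were below all others, and the log2 fold change was -0.92 (SE 0.117, adjusted p = 0.0033 in limma). EIF2AK1, the heme-regulated kinase, fell with VCR in NC cells, at -0.79 (adjusted p = 0.0015). Between PTPN21+DMSO and NC+DMSO, 3 of the 17 passed (6.34% of all genes): EIF2AK1 was lower, at -0.59 (adjusted p = 0.0362), and EIF2S1 and EIF2B3, subunits of eIF2 and of its exchange factor, were higher, at 0.47 (adjusted p = 0.0334) and 0.57 (adjusted p = 0.0301). Each of these calls was lost without the trend, with the groups compared alone, with a replicate block and in 1 or 2 further settings, and without 6, 6 and 4 of the 12 libraries in that order (adjusted p of up to 0.148).

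Of 25 further ATF4 targets, 18 were tested, and under VCR 2 rose and 4 fell in NC cells, and 1 rose and 5 fell in PTPN21 cells, which is 33.3% in both, against 36.2% and 28.5% of all genes. ATF3, a stress-induced transcription factor, was 43.8, 39.2 and 49.4 in NC cells and 26.7, 21.1 and 21.6 in PTPN21 cells under DMSO, and 93.7, 88.7 and 101 in NC cells and 50.2, 54.2 and 46.1 in PTPN21 cells under VCR. NC+VCR was highest and PTPN21+DMSO lowest, and NC+DMSO and PTPN21+VCR overlapped. Its log2 fold change with VCR was 1.08 (adjusted p = 0.000127) in NC cells and 1.09 (adjusted p = 0.000141) in PTPN21 cells. With PTPN21 it was -0.91 (adjusted p = 0.00679), lost with the groups compared alone (adjusted p = 0.0645), under DMSO and -0.90 (adjusted p = 0.00714) under VCR.
PCK2, the mitochondrial phosphoenolpyruvate carboxykinase, fell with VCR, with log2 fold changes of -1.67 (adjusted p = 0.00233) in NC cells and -1.57 (adjusted p = 0.00388) in PTPN21 cells. SLC1A5, a glutamine carrier, fell as well, with -0.87 (adjusted p = 0.00521) and -0.81 (adjusted p = 0.00908). EIF4EBP1, a repressor of cap-dependent translation, was 228, 295 and 163 in NC cells and 521, 413 and 439.6 in PTPN21 cells under DMSO, and 104, 109 and 124 in NC cells and 157, 172 and 184 in PTPN21 cells under VCR. It was higher in PTPN21+DMSO than in all other groups, with 1.03 (adjusted p = 0.0124) against NC+DMSO, a call lost without PTPN21+DMSO replicate 1 (adjusted p = 0.0677) and with the groups compared alone (0.0763), and fell with VCR, with -0.98 (adjusted p = 0.00166) in NC cells and -1.41 (adjusted p = 0.000186) in PTPN21 cells. Under median ratio scaling the falls of EIF4EBP1 and SLC1A5 in NC cells were not called (adjusted p of 0.0752 and 0.0873).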

How the data were processed

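The authors deposited 1 table of FPKM for 12 libraries. The submitters' processing notes name fastp, Bowtie2 and the mouse build mm10, while the table lists human Ensembl genes. The counting program, annotation, filters and strand setting are not given in the sources used here. All value columns matched a sample by name. Of the table's genes, 58453 (96.3%) had an entry in GENCODE release 29 (GRCh38), used for positions.
The 11591 genes whose deposited FPKM averaged at least 1 were analysed as log2(FPKM + 1), which understates changes of low genes. The 4 group means were modelled together in limma (version 3.58.1, R version 4.3.3) with its trend option, and the 5 comparisons were adjusted by Benjamini-Hochberg over the genes analysed, at 0.05. The genes, the gene lists and the search motif were chosen with earlier results of these data known. Named were all 46 genes, with values per library for ATF4 and those past the threshold, and a few genes past the threshold from each other list (at most 4, and EIF2S1 and EIF2B3 to complete a count), picked with their values seen. Of the 46, 11 overlap another gene with a mean of at least 1 FPKM, and reads may be shared there.
Depth was estimated from the steps of low values, with 46.7% to 54.9% of them close to whole multiples, where 20% would be without steps. Pearson's correlation between replicates across genes was 0.939 to 0.976. Other settings tried were TPM, median ratio and quantile scaling, a pseudocount of 0.1, a minimum mean of 5 FPKM or none, limma without its trend or with robust moderation, a fit of the compared groups by themselves, a block for replicate number, and each library left out in turn. All else was computed in Python (3.11.15), using numpy 2.4.6, pandas 2.3.3 and matplotlib 3.10.9.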

Additional observations from a re-analysis of the deposited data

How the results depend on the processing

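The number of the 46 genes past the threshold was 1 between PTPN21+VCR and NC+VCR, and 0 with no filter, under quantile scaling, without the trend and with a replicate block, and 2 with a mean of at least 5 FPKM and with the groups compared alone. Leaving out 1 library gave 0 to 2 (0 without any single NC+VCR or PTPN21+VCR library or PTPN21+DMSO replicate 1 or 2, and 2 without NC+DMSO replicate 1). Between PTPN21+DMSO and NC+DMSO it was 2, and 0 with a replicate block, with the groups compared alone, without the trend and with no filter, and 4 under quantile scaling. Leaving out 1 library gave 0 to 3 (0 without PTPN21+DMSO replicate 1 or 3, and 1 without NC+DMSO replicate 1 or 3 or any PTPN21+VCR library). With VCR in NC cells it was 21, and 12 under median ratio and 13 under quantile scaling, and 16 to 22 leaving out 1 library. With VCR in PTPN21 cells it was 17, and 12 to 17 leaving out 1 library. The interaction stayed at 0 in all settings. Median ratio scaling turned ASNS to 0.0141, FARSB to 0.019 and WARS1 to 0.0628 in the NC comparison. For the 70 single log2 fold changes followed, 595 of 697 values under the planned settings kept direction and side of the threshold, as did 724 of 840 leaving out 1 library. The mitochondrial synthetases, AIMP1 and the lineage markers were not among the 70. The causes were not tested.

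Replicate numbers are shared by the groups, but same-numbered libraries did not deviate together: the 18 correlations of their deviations from group means ran from -0.15 to 0.06, so the numbers were not taken to pair the libraries. With a replicate block, 0, 0, 20, 14 and 0 of the 45 genes passed, for PTPN21+VCR against NC+VCR, PTPN21+DMSO against NC+DMSO, VCR in NC cells, VCR in PTPN21 cells and the interaction.

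With 3 libraries a group, changes can be missed, also ones that are not small, and genes with low FPKM have the least depth behind them.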

Other observations

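Any gene of the cytosolic synthetases that also encodes a mitochondrial enzyme was kept in the cytosolic list. A list of mitochondrial tRNA synthetase genes that shares no gene with the cytosolic list was read as a comparison. Of 17 genes, 16 were tested, and with VCR 9 fell in NC cells and 5 in PTPN21 cells, with 0 higher, where 28.3% and 19.3% of all genes were lower. Their median log2 fold change was -0.62 in NC cells and -0.43 in PTPN21 cells, against -0.36 and -0.17 for all genes and -0.34 and -0.14 for the cytosolic synthetases. Called in both were AARS2 (-1.27 and -1.24), FARS2 (-1.23 and -0.82), SARS2 (-1.30 and -0.97) and TARS2 (-1.04 and -1.24). SARS2, the mitochondrial enzyme for serine, thus fell where the cytosolic SARS1 rose. These values are of the deposited scale, and the mitochondrial synthetases were not followed under the other scalings. With PTPN21, 0 of the 16 passed under either treatment in limma, where 6.34% of all genes passed under DMSO and 1.82% under VCR.

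AIMP1, AIMP2 and EEF1E1, scaffold proteins of the cytosolic multisynthetase complex, were all tested. Under DMSO, PTPN21 cells had more AIMP2. AIMP2 was 16, 25.5 and 17.1 in NC cells and 36.8, 37 and 28.2 in PTPN21 cells under DMSO, and 20.9, 14.6 and 20.9 in NC cells and 20.6, 29.2 and 26.1 in PTPN21 cells under VCR. In PTPN21+DMSO against NC+DMSO its log2 fold change was 0.79 (SE 0.214, adjusted p = 0.0494 in limma), a call lost in 6 of 10 other settings and without 10 of the 12 libraries (adjusted p of 0.0565 to 0.180), and these groups did not overlap. AIMP1 fell with VCR in PTPN21 cells, at -0.65 (adjusted p = 0.0307).

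The lineage markers moved with treatment as well. Of the 6 myeloid, erythroid and epithelial markers tested, 2 rose and 2 fell with VCR in each cell group. Of the 2 T cell markers tested, 1 rose and 1 fell in NC cells, and 1 fell in PTPN21 cells. Of all genes, 7.91% rose and 28.3% fell in NC cells, and 9.22% rose and 19.3% fell in PTPN21 cells. KRT8, a keratin, rose with VCR, with log2 fold changes of 1.40 (adjusted p = 0.000239) in NC cells and 1.66 (adjusted p = 8.26e-05) in PTPN21 cells. HBG1, a fetal globin, fell, with -0.68 (adjusted p = 0.0165) and -1.34 (adjusted p = 0.00037). HBG1 was 336, 448 and 271 in NC cells and 709, 648 and 561 in PTPN21 cells under DMSO, and 232, 227 and 188 in NC cells and 196, 271 and 294 in PTPN21 cells under VCR, highest in PTPN21+DMSO.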
